A study of Mus musculus with 2 samples.

Results

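Vascular wall cells in culture and in disease can take up parts of the program that builds cartilage and bone. The genes described here are the 10 osteochondrogenic and mineralization genes Sox9, Runx2, Sp7, Alpl, Acan, Ibsp, Mgp, Dlx5, Msx2 and Enpp1, a list of names set with no threshold on their values, although earlier results of these data were known when it was chosen. A value was found for 9 of them among 20211 gene symbols, and Runx2, the runt-domain factor that directs osteoblast formation, was not analysed here. Each symbol stood on 1 row, so no averaging of repeated symbols was needed for them.

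RNA was sequenced from primary perivascular cells (PCs) of the mouse aorta, with 1 wild type (WT) library and 1 library labelled Kai1 KO (Kai1-/-). Both were of the C57BL/6 background and were grown in DMEM with fetal bovine serum, with no other treatment given. Kai1 is the gene Cd82, which encodes a tetraspanin of the cell surface. How the Kai1 allele was disrupted, and whether cells of several animals were pooled, is not given in the sources used here for these libraries. Levels are RPKM, reads scaled to transcript length and to the mapped reads of the library, so that levels can be set side by side between genes. The RPKM of all symbols summed to 884463 in WT and 1238193 in Kai1-/-, so that ratios between the libraries depend on the scaling. There are no replicates. Every difference below is therefore between these 2 libraries and has no replicate check, and no p-value is given.

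In development, SOX9 directs cells to the cartilage lineage and turns on matrix genes such as Acan and Col2a1, whereas RUNX2 and then SP7 (osterix) direct them to the osteoblast lineage. The homeobox factors MSX2 and DLX5 respond to BMP signals and act on both skeletal cells and smooth muscle. Whether a matrix mineralizes depends on inorganic pyrophosphate, which blocks crystal growth. ENPP1 makes it from extracellular ATP, and the phosphatase encoded by Alpl breaks it down. In the artery the small matrix Gla protein MGP, made by smooth muscle cells, keeps the wall free of calcium deposits.

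The member with a large difference was Msx2, at 7.84 RPKM in WT cells against 0.536 in Kai1-/- cells, 14.6-fold lower. Of the 9 members, 4 averaged 1 RPKM or more across both libraries, namely Mgp, Sox9, Msx2 and Enpp1. Among these, 1 was more than 2-fold lower in Kai1-/- and 0 were more than 2-fold higher, against 7.81% lower and 7.98% higher among all 10068 genes at this level. Mgp, Sox9 and Enpp1 differed by less than 2-fold. The other 5 members, Dlx5, Sp7, Alpl, Acan and Ibsp, lay below a mean RPKM of 1, and Acan and Ibsp were listed at 0 in both libraries.

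**Figure D1:**
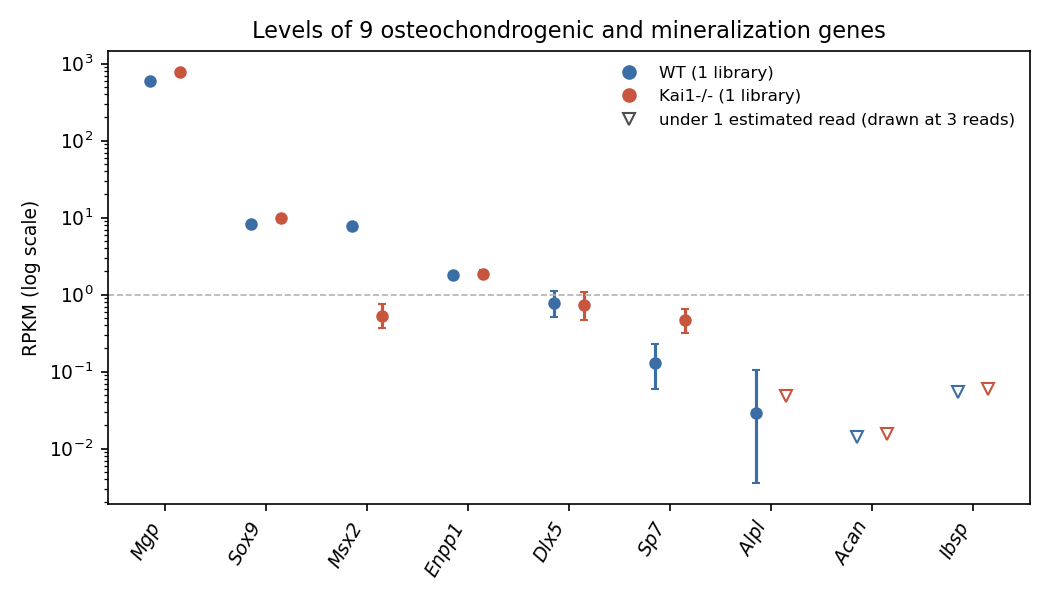
RPKM on a log scale for each member, ordered by mean level, in the WT library (blue) and the Kai1-/- library (red). Bars are 95% Poisson intervals of the estimated reads, and triangles stand for genes under 1 estimated read, drawn at the level of 3 reads. Msx2 goes from 7.84 to 0.536, while the other members above the dashed line at an RPKM of 1 lie nearly level.

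Few reads stood behind the low values. The steps between low RPKM values matched roughly 29550000 reads for WT and 27000000 for Kai1-/-. Reads per gene below were estimated from these numbers and the longest annotated transcript, and intervals from them cover counting error only. Cd82 itself was at 12.8 RPKM in WT against 2.62 in Kai1-/-, 20.5% of WT. The 4 Y-linked genes Ddx3y, Eif2s3y, Kdm5d and Uty had values above 0 for WT alone and 0 for Kai1-/-, so that sex of the cells and genotype cannot be told apart. Among all 20211 symbols, 7643 were lower in Kai1-/- and 7145 higher. Of the 10 smooth muscle and mural markers, 9 were lower in the Kai1-/- library. Their summed RPKM was 4646 in WT and 2977 in Kai1-/-, most of it from Acta2, at 3823 and 2580. Pdgfrb went from 44.7 to 31.6 and Cspg4 from 15.4 to 8.27, while Tagln, Cnn1 and Notch3 were 2.06-, 2.43- and 2.16-fold lower. The largest falls of this list were those of Mcam, Myh11 and Des. Mcam, an adhesion molecule of mural cells, was 18.6-fold lower, from 4.90 to 0.264 RPKM, with about 20 reads in Kai1-/-. On the log2 scale, its counting interval, -4.93 to -3.56, overlapped that of Msx2, -4.41 to -3.35. Myh11, the myosin of contractile smooth muscle, went from 2.96 to 0.346 and Des, which encodes desmin, from 1.23 to 0.2497, while Rgs5 was near 0 in both, at 0.0630 and 0.233. The part of these differences in the lower Msx2 was not tested. Of 10 endothelial markers, 2 were at 0 for WT and 9 for Kai1-/-, beside 28.15% and 34.15% of all symbols. Those above 0 in WT alone were low there, with the highest, Pecam1, at 0.413 RPKM. Cdh5, Tie1 and Vwf had about 3, 2 and 1 reads in WT. Egfl7 was the endothelial marker above 0 in both, at 2.28 and 7.39. In such bulk RNA, fewer cells of a type and less RNA per cell cannot be told apart.

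Msx2, a homeobox repressor and BMP target, is a gene of chromosome 13, at 53562250 to 53568443 of NCBI37 (mm9), minus strand. Its levels rest on about 522 reads from WT and 33 from Kai1-/-. The log2 ratio of Kai1-/- to WT, computed after adding 0.1 to each RPKM, was -3.64, and only 0.497% of the 10068 genes lay lower. Without the added 0.1 it was -3.87, with a 95% counting interval from -4.41 to -3.35. The ratio was below 0 in all 6 settings of scaling and added value, from -4.05 with both libraries scaled to Gapdh to -2.52 with 1 RPKM added.

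Msx1, the closest relative of Msx2, went the other way, from 0.605 RPKM in WT to 1.15 in Kai1-/-. Its log2 ratio was 0.82, short of 2-fold, and the mean level was below 1 RPKM. In WT the level of Msx2 was thus above that of Msx1, and in Kai1-/- it was below. Both estimates rest on few reads in one of the libraries, with about 31 and 54 reads for Msx1. Reads from near-identical copies could be counted for the wrong gene. Over the whole transcripts, of 2456 bases for Msx2 and 1935 for Msx1, the longest run shared without a mismatch was 22 bases. The read length is not given in the sources used here. The paper's alignment allowed mismatches in a read, so this run does not measure which reads could be misplaced.

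**Figure D2:**
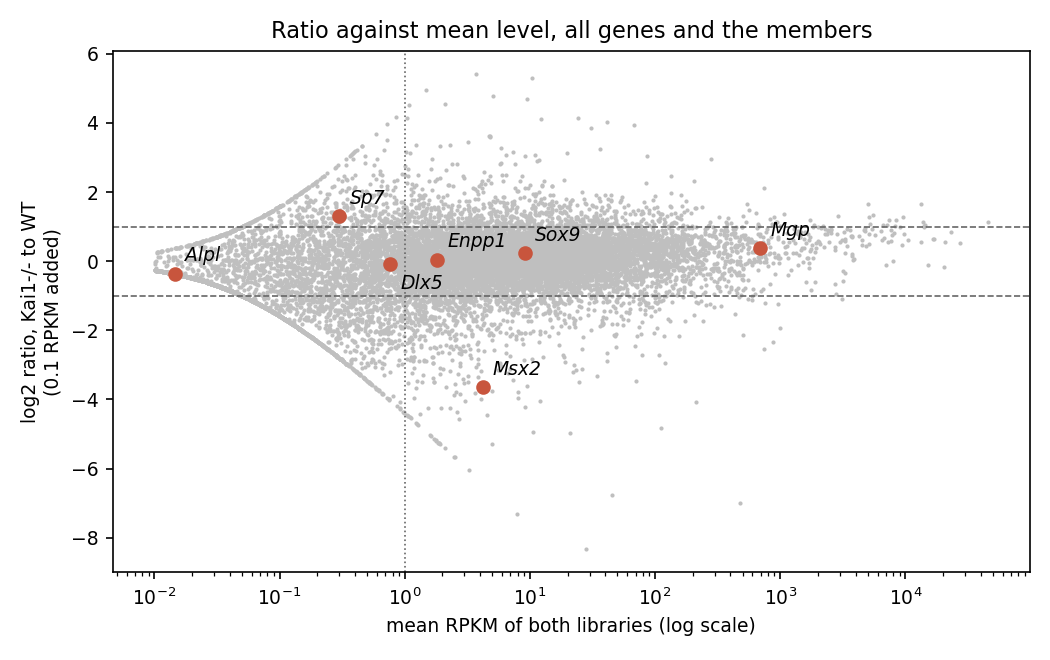
Log2 ratio of Kai1-/- to WT (0.1 RPKM added) against the mean RPKM of both libraries on a log scale, with 1 grey point per gene and the members in red. Dashed lines mark a 2-fold difference and the dotted line a mean RPKM of 1. Msx2 stands at -3.64 below the bulk of genes at its level, while Mgp, Sox9, Enpp1 and Dlx5 lie between the dashed lines.

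Dlx5, a distal-less homeobox factor of osteoblasts, is found on chromosome 6 at 6827805 to 6832085. It was at 0.782 RPKM in WT against 0.734 in Kai1-/-, from about 28 and 24 reads. The counting interval of the log2 ratio without the added 0.1 was wide, from -0.94 to 0.75, so that a difference of this size was not detectable at this depth. Dlx6, its neighbour on chromosome 6 from 6813334 to 6818568, was listed at 0 in both libraries. Among the other relatives, Dlx2 had the highest level, with 5.13 RPKM in WT against 2.08 in Kai1-/-, a log2 ratio of -1.26. Dlx1, which lies beside Dlx2 on chromosome 2, had RPKM values of 0.615 and 0.580. Dlx3 and Dlx4 had at most about 4 reads in WT and were listed at 0 in Kai1-/-. The longest run that Dlx5 shares with Dlx2 is 13 bases.

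Sox9, the master factor of cartilage, was expressed in both libraries, at 8.36 RPKM in WT against 9.80 in Kai1-/-. It lies on chromosome 11 from 112643538 to 112649074. The log2 ratio was 0.23, with about 972 and 1042 reads, and it turned to -0.27 when both libraries were scaled to Gapdh. SOX9 acts on cartilage genes together with SOX5 and SOX6. Sox5 was at 0.0854 RPKM in WT against 0.130 in Kai1-/-, and Sox6 was listed at 0 in both libraries. Sox8, the relative of Sox9 within its subgroup, had about 7 reads in WT and was listed at 0 in Kai1-/-.

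Sp7, which encodes osterix, lies on chromosome 15 from 102187040 to 102197285 and was close to the limit of detection. It was at 0.130 RPKM in WT against 0.467 in Kai1-/-, from about 10 and 34 reads. The raw ratio was 3.60-fold higher in Kai1-/-, with a counting interval on the log2 scale from 0.85 to 3.08. With 0.1 added to each RPKM the log2 ratio was 1.30, and it went from 1.77 with 0.01 added to 0.38 with 1 added. Scaling to Gapdh took it to 0.91, so that Sp7 crossed the 2-fold line with the setting. It is not among the genes counted as higher, since its mean RPKM was 0.298.

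Runx1 and Runx3, the relatives of Runx2, had values. Runx1 was at 2.50 RPKM in WT against 2.25 in Kai1-/-, and Runx3 had 1.02 and 0.385, a log2 ratio of -1.20 at a mean level below 1 RPKM. Cbfb, which encodes the shared partner of the RUNX proteins, had values of 6.17 and 7.16.

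Acan encodes aggrecan, the large proteoglycan that gives cartilage its resistance to compression. It maps to chromosome 7, 86198369 to 86259985, and was listed at 0 in both libraries. A count of 0 allows up to 3 reads, which for its transcript of 7355 bases is 0.0142 RPKM in WT against 0.0155 in Kai1-/-. Versican, the lectican of the vessel wall and of loose connective tissue, was the relative that was expressed. Vcan was at 7.15 RPKM in WT against 19.5 in Kai1-/-, a log2 ratio of 1.44. The lecticans of brain, Bcan and Ncan, were below an RPKM of 0.5 in both.

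Ibsp encodes bone sialoprotein, a matrix protein on which mineral forms, and lies on chromosome 5 from 104728190 to 104740488. It too was listed at 0 in both libraries, which allows an RPKM of up to 0.0543 in WT and 0.0595 in Kai1-/-. Its gene sits in a cluster of related genes, the SIBLING family, that runs from Dspp at 104599731 to Spp1 at 104870069. Of the 5 genes of this cluster, Spp1, which encodes osteopontin, was the one expressed, at 22.8 RPKM in WT against 16.1 in Kai1-/-. Dmp1 and Dspp had about 1 and 5 reads in WT and 0 in Kai1-/-, and Mepe was listed at 0 in both.

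**Figure D3:**
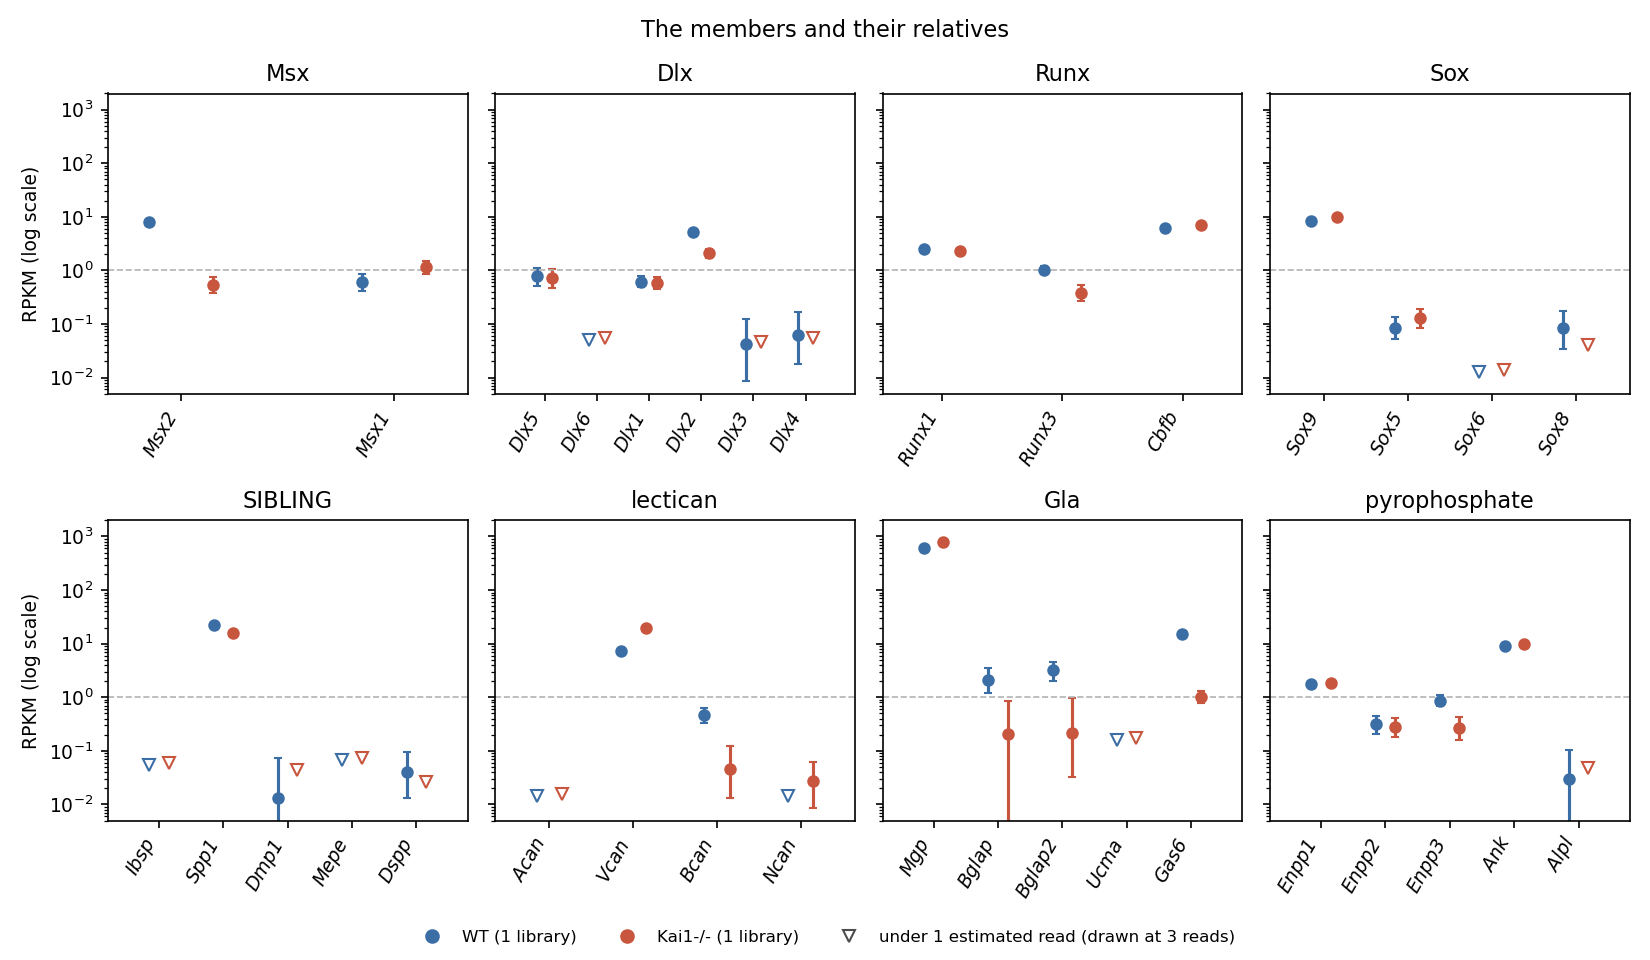
RPKM on a log scale of the members and their relatives by family, in the WT library (blue) and the Kai1-/- library (red), with 95% Poisson intervals of the estimated reads. The panels hold the Msx, Dlx, Runx and Sox factors, the SIBLING proteins, the lecticans, the Gla proteins and the genes of pyrophosphate. Triangles are genes under 1 estimated read, drawn at 3 reads, and within the SIBLING and lectican panels Spp1 and Vcan are the genes above the dashed line at an RPKM of 1.

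Mgp was by far the highest member. It was at 599.9 RPKM in WT against 777 in Kai1-/-, rank 203 and rank 190 of all 20211 symbols. It lies on chromosome 6 from 136820957 to 136824326. The log2 ratio was 0.37, with a counting interval from 0.33 to 0.42, which is far narrower than the shift between scalings, since the ratio was -0.13 with both libraries scaled to Gapdh. The transcript has only 598 bases, so that the level of Mgp depends on the fragment length allowed for in the RPKM more than that of the longer genes.

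MGP works only after vitamin K-dependent carboxylation of its glutamate residues, and genes of that step were among the companion genes. Ggcx, the carboxylase itself, was at 11.5 RPKM in WT against 4.38 in Kai1-/-, a log2 ratio of -1.37. Vkorc1, which regenerates vitamin K, had 124 and 139, and its relative Vkorc1l1 had 3.45 and 2.01. Of the other Gla proteins, Gas6, a ligand of the TAM receptors, was at 15.2 RPKM in WT against 1.001 in Kai1-/-, a log2 ratio of -3.80. The osteocalcin genes Bglap and Bglap2 had RPKM values of 2.12 and 3.16 in WT and of 0.203 and 0.212 in Kai1-/-. These 2 values are uncertain, because the transcripts of 440 and 471 bases share a run of 241 bases, and because only about 1 and 2 reads stood behind them in Kai1-/-. Ucma was listed at 0 in both libraries.

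Enpp1, the enzyme that makes pyrophosphate, was at 1.80 RPKM in WT against 1.86 in Kai1-/-. It lies on chromosome 10 from 24357720 to 24431965. The log2 ratio was 0.04 with an interval of the raw ratio from -0.17 to 0.27, and it was -0.43 after scaling to Gapdh. Ank, the membrane protein that brings pyrophosphate or its precursor out of the cell, had values of 8.88 and 9.71. Enpp2, the lysophospholipase autotaxin, had 0.311 and 0.283, and Enpp3 had 0.865 and 0.272.

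Alpl, which encodes the tissue-nonspecific alkaline phosphatase of mineralizing cells, lies on chromosome 4 from 137297648 to 137352299. About 2 reads, or 0.0292 RPKM, were found for WT and 0 for Kai1-/-, so that no ratio is given. Phospho1, the phosphatase of matrix vesicles, had RPKM values of 0.0790 and 0.219. The phosphate transporters Slc20a1 and Slc20a2 had 16.8 and 8.50 in WT and 14.1 and 10.2 in Kai1-/-. In the chain that turns extracellular ATP into adenosine, Entpd1 was at 0.692 RPKM in WT against 2.39 in Kai1-/-, a log2 ratio of 1.65. Nt5e, which completes that chain, was listed at 0 in WT and had about 17 reads in Kai1-/-, at least 6.27-fold higher when WT is set to 3 reads.

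The order of the members by level was similar in both libraries apart from Msx2. In WT the order was Mgp, Sox9, Msx2, Enpp1, Dlx5, Sp7 and Alpl, followed by Acan and Ibsp at 0. The intervals of Sox9, 7.84 to 8.90, and of Msx2, 7.17 to 8.53, overlapped there. In Kai1-/- Msx2 came after Enpp1 and Dlx5. Its interval of 0.373 to 0.761 overlapped those of Dlx5, 0.466 to 1.08, and of Sp7, 0.322 to 0.650. Sox9 and Msx2 were thus at a like level in WT PCs and 18.3-fold apart in Kai1-/- PCs.

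Of 103 other genes of the skeletal program, grouped by role, 102 had a value and 46 averaged 1 RPKM or more. Among the 46, 10 were more than 2-fold lower in the Kai1-/- library and 7 more than 2-fold higher, or 21.7% and 15.2%, against 7.81% and 7.98% of all genes at this level. Of these 17 genes, 5, namely Bglap, Bglap2, Prg4, Omd and Entpd1, were below 1 RPKM in one library and reached the minimum through the library where they were high, as Msx2 did, so that the counts support nothing on their own. The median log2 ratio of the 46 genes was -0.21, against 0.08 for all genes at this level. With both libraries scaled to Gapdh, which moved that median of all genes to -0.41, 15 of the 46 were lower and 5 higher, beside 18.4% lower and 2.76% higher among all genes.

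Of the 20 skeletal transcription factors, 6 reached a mean RPKM of 1, and 1 of them, Dlx2, was more than 2-fold lower. The highest were Atf4, a stress and osteoblast factor, at 353 RPKM in WT against 289 in Kai1-/-, and Twist2, a repressor of osteoblast genes, at 43.8 and 34.4. Several factors below the minimum were lower in Kai1-/-, among them Zfp521, an antagonist of Runx2, at 1.31 and 0.233, and Mef2c, a factor of muscle and of growing cartilage, at 0.720 and 0.147. These 2 were singled out after their values were seen.

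The cartilage matrix genes differed in both directions. Of 19 with a value, 4 averaged 1 RPKM or more, and 2 of these were more than 2-fold higher and 2 more than 2-fold lower. Col2a1, the main collagen of cartilage, was at 9.74 RPKM in WT against 31.9 in Kai1-/-, and Col11a1, which joins it in the same fibrils, had 3.78 and 8.85, with log2 ratios of 1.70 and 1.21. Prelp, a leucine-rich proteoglycan that anchors basement membranes to connective tissue, had 118 and 21.4, and Prg4, the joint lubricant lubricin, had 1.94 and 0.755, with log2 ratios of -2.46 and -1.26. Of the 19 genes, 6 were listed at 0 in both libraries, among them Col9a1, Matn1 and Hapln1, beside 5423 of all 20211 symbols.

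Of the 20 bone matrix and osteoblast genes, 14 averaged 1 RPKM or more, with 4 more than 2-fold lower, 2 more than 2-fold higher and 8 in between. Lower were Bglap, Bglap2, Col1a2, a chain of type I collagen, and Cdh11, the osteoblast cadherin, the last of these from 19.3 to 9.47. Col1a2 was at 824 RPKM in WT against 377 in Kai1-/-. Higher were Tnfrsf11b, which encodes osteoprotegerin, the decoy receptor that restrains osteoclasts, from 7.58 to 25.0, and Omd, a leucine-rich protein of bone, from 0.588 to 1.88. Bgn and Sparc, abundant matrix genes of the vessel wall as well as of bone, had the highest levels, 3351 and 2261 in WT and 2111 and 1265 in Kai1-/-.

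Of the 20 genes of phosphate and calcification control, 12 averaged 1 RPKM or more, with 3 more than 2-fold lower and 1 higher. Beside Gas6, Ggcx and Entpd1, Tgm2, a transglutaminase that crosslinks matrix, was at 58.5 RPKM in WT against 16.3 in Kai1-/-, a log2 ratio of -1.84. The annexins of matrix vesicles, Anxa5 and Anxa6, were the most abundant of this group, at 385 and 154 in WT and at 269 and 183 in Kai1-/-.

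Of the 20 skeletal inducing signals, 9 averaged 1 RPKM or more, with 0 lower and 1 higher by more than 2-fold. Bmp4 was at 9.24 RPKM in WT against 28.4 in Kai1-/-, a log2 ratio of 1.61, which is opposite in direction to Msx2. Grem1, an antagonist of BMP ligands, had values of 94.5 and 105. The BMP receptors and SMADs above the minimum, Bmpr1a, Bmpr2, Acvr1, Smad1, Smad5 and Smad9, lay within 2-fold in these libraries. The receptor gene Bmpr1b, below the minimum, was at 1.16 RPKM in WT against 0.364 in Kai1-/-, a log2 ratio of -1.44. About 177 and 51 reads stood behind it. Bmp2 and Bmp6 were low in WT, with about 16 and 48 reads, and listed at 0 in Kai1-/-, for Bmp6 at least 14.7-fold lower when Kai1-/- is set to 3 reads.

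**Figure D4:**
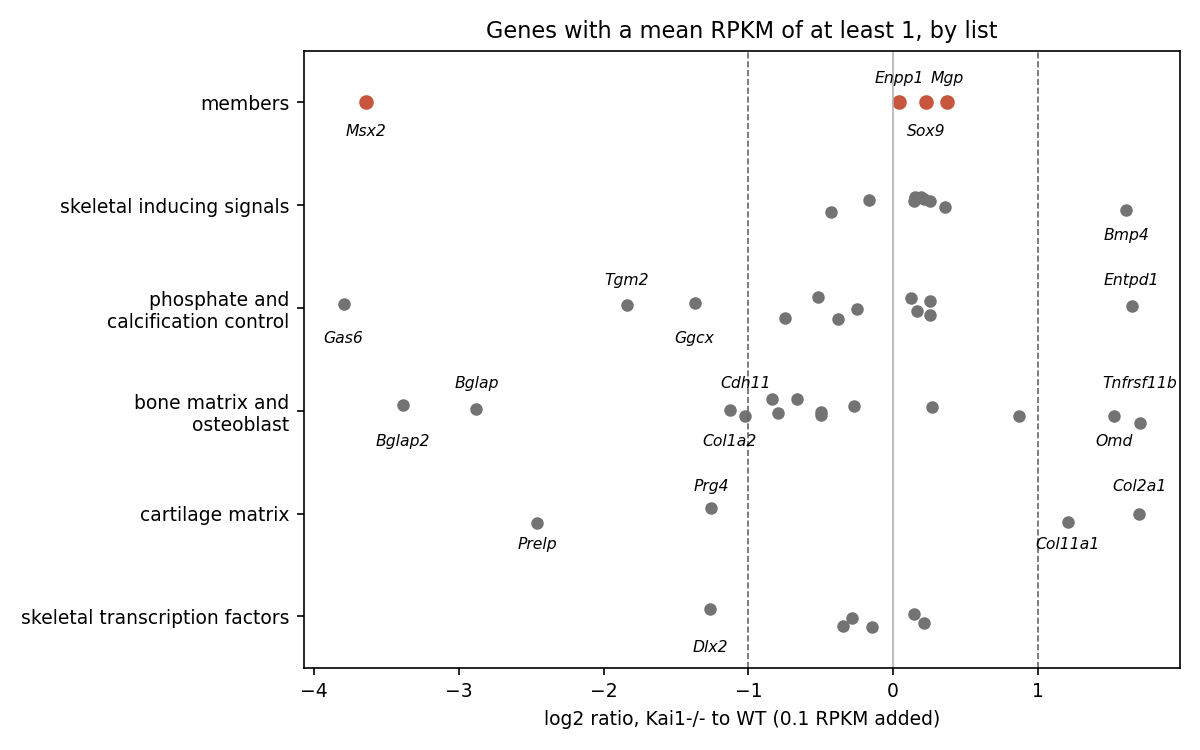
Log2 ratio of Kai1-/- to WT (0.1 RPKM added) for each gene that averaged 1 RPKM or more, in 5 of the lists, with the members in red at the top and 1 point per gene. Dashed lines mark a 2-fold difference, and genes past them are named, together with all members shown. Points are shifted a little in height so that they can be told apart. Msx2 and Gas6 are the points farthest to the left, at -3.64 and -3.80.

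Other cell types can supply some of these transcripts. Of 7 osteoclast markers, 4 were listed at 0 in both libraries, beside 5423 of all 20211 symbols. The summed RPKM of the 7 was 36.1 in WT and 10.8 in Kai1-/-, nearly all of it Ctsk. Acp5 had about 29 reads in WT and 0 in Kai1-/-. Of the 9 macrophage and leukocyte markers with a value, 7 were lower in Kai1-/- and 1 higher. Among all 20211 symbols, 7643 were lower and 7145 higher. The summed RPKM of the 9 markers was 27.5 in WT and 6.72 in Kai1-/-, and the defining marker Emr1 was at 0 in both. Csf1r, the receptor of macrophage colony-stimulating factor, went from 11.7 RPKM in WT to 2.66 in Kai1-/-, Tyrobp, a signalling adaptor of myeloid cells, from 10.4 to 2.37 and Lyz2, the lysozyme of macrophages, from 3.44 to 1.09. Ptprc was at 0.0407 RPKM in WT against 0.00697 in Kai1-/-, Mrc1 had 0.0330 and 0, and Itgam had about 0 reads in both. The part of these markers in the lower Msx2, Gas6 and Bglap was not tested.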

How the data were processed

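RNA of aortic PCs was sequenced from 1 WT and 1 Kai1-/- library. Reads had been placed on mm9 by the authors using TopHat 2.0.9 with Bowtie, and 1 RPKM value per RefSeq gene and library was deposited. Cufflinks is also named in the submitters' processing notes. The library type, depth and any scaling between libraries are not given in the sources used here.

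Of 20462 deposited rows, 38 had no symbol and were dropped, and the values of 153 symbols found on several rows were averaged. The log2 ratio was taken after adding 0.1 to each RPKM, and genes that averaged 1 RPKM or more were counted past a 2-fold difference. Genes were grouped by genotype as labelled, and no test was run.

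Reads were estimated from 5776 genes with 1 annotated transcript of over 800 bases, less a fragment of 200 bases. Only values of 0.5 to 4.5 reads entered the fit to whole multiples of 1 read. These were 346 values for WT and 176 for Kai1-/-. At the best step 82.4% of these WT values and 77.8% of the Kai1-/- values lay within 0.15 of a whole read. Intervals (95%, Poisson for a level, Clopper-Pearson for a ratio) cover counting error only, and 3 reads were taken as the limit of a count of 0. The step search and the counts were checked on simulated data. The simulation used the same transcript lengths and fragment length as the search, so it could check the computation and not these assumptions. Positions and transcripts came from GENCODE M1 on NCBI37 (mm9).

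The members and lists were chosen with earlier results of these data known. All members were named, with their relatives by family, Cd82, and from each companion list up to 6 genes past 2-fold and the 2 with the highest mean. Genes of the vitamin K, phosphate and ATP steps, Zfp521, Mef2c, Bmp2, Bmp6 and the BMP receptors and SMADs were added for their role after their values were seen. Alternatives were other added values, scalings, minimum levels and unaveraged rows. Python 3.11.15, numpy 2.4.6, pandas 2.3.3, scipy 1.17.1 and matplotlib 3.10.9 were used.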

Additional observations from a re-analysis of the deposited data

How the results depend on the processing

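No paired analysis was possible because there is only 1 WT and 1 Kai1-/- library. Of 30 recomputed log2 ratios of members, 24 moved by less than their counting interval and 6 moved further. Scaled to Gapdh, the ratios were -0.43 for Enpp1, -0.13 for Mgp and -0.27 for Sox9, each above 0 as deposited. The ratio of Mgp was 0.29 when the median ratio was centred on 0 and 0.24 when the upper quartiles were equalised, and that of Msx2 was -2.52 with 1 RPKM added. Of 48 recomputed counts, 37 stayed within 1.5 times. With no minimum on mean RPKM, 1 member, Sp7, was higher, 24 companion genes were lower and 11 higher, and 1878 of all genes were lower and 1205 higher. With a mean RPKM of at least 5, which leaves out Msx2, 0 members and 6 companion genes were lower, and 350 of all genes were lower and 511 higher. Scaled to Gapdh, 1856 of all genes were lower and 278 higher. Without replicates, the spread between cultures or animals is unknown, and genes with under about 50 reads, such as Sp7 and Dlx5, are limited by counting.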

Other observations

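Hedgehog signalling, which drives growing cartilage, had 3 genes among the skeletal inducing signals. Ptch1, the receptor that the pathway itself turns on, was at 0.559 RPKM in WT against 1.44 in Kai1-/-, from about 68 and 160 reads. Gli1, another gene that the pathway turns on, had 0.0585 and 0.249, from about 6 and 23 reads. Both lay above WT in the Kai1-/- library, while the ligand gene Ihh had about 4 reads in WT and was listed at 0 in Kai1-/-. Pth1r, the receptor of parathyroid hormone and its related peptide, was at 1.32 RPKM in WT against 0.130 in Kai1-/-. These genes lay below a mean RPKM of 1 and were picked after their values were seen.

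Of 6 adipocyte markers, 3 were listed at 0 in both libraries, among them Adipoq. Fabp4 was at 10.6 RPKM in WT against 4.53 in Kai1-/-, and Pparg had 2.49 and 2.21. Of 8 epithelial markers, Epcam and Krt5 were listed at 0 in both libraries. Ppl, a plakin of epithelial cells, had 0.616 in WT and 18.3 in Kai1-/-, while Perp had 4.23 and 0.375. Of 8 fibroblast markers, 6 were lower in Kai1-/- and 2 higher. Among all 20211 symbols, 7643 were lower, 7145 higher and 5423 at 0 in both libraries. The fibroblast markers had a summed RPKM of 1842 in WT and 1330 in Kai1-/-. Col3a1, a chain of fibrillar collagen, had 67.5 and 101.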
